A study of Mus musculus with 16 samples.

Results

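Cholesterol in a cell comes from synthesis and from uptake, and it leaves by storage and efflux, and 34 genes of these routes were followed in mGF, murine gingival fibroblasts, which form the connective tissue of the gum. The 34 are a list of gene symbols, chosen from the known biology of sterol synthesis, its control and sterol efflux. Earlier results of these data were known when they were chosen, so counts of members called below are descriptions. All 34 were found among the 56941 genes of the deposited count table. All 34 also passed the filter on low counts, which kept 16306 genes. The study asked how metabolic and inflammatory stress, given alone or together, alter these cells, and measured their RNA in bulk in 16 libraries of 4 groups with 4 libraries each. Wild-type (WT) C57Bl6 mice of 3 to 6 months gave the gingival explants from which the fibroblasts grew, and cells were used between passage 2 and passage 8. In every group the medium for culture held 20% fetal bovine serum, and treatment lasted 24 h. The BSA group received the fatty acid's albumin carrier alone, labelled at 200 μM like the complex, and served as control. Palmitate was given at 200 μM bound to BSA, IL-1β at 1 ng/mL, and palmitate + IL-1β at both doses. The paper describes the cells without palmitate as given BSA, with or without IL-1β. Its abstract and the sample label name IL-1β alone for the IL-1β group, so whether that group received the carrier is not settled. If it did not, IL-1β against BSA also differed in the carrier. Whether serum was present during treatment was not given in the sources used here. Serum carries lipoprotein cholesterol, which may limit these cultures as a model of sterol balance. Nothing in the labels says that the 4 libraries of a group came from separate cultures or animals, so p-values measure the spread between these libraries, which may be technical.

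Library totals ran from 21234789 to 92752515 counts on genes, the highest in palmitate replicate 10. Levels are given as counts per 10⁶ (CPM) on library sizes scaled by TMM factors of 0.970 to 1.04. All 9 fibroblast markers examined were detected, with Col1a1 the most abundant, and their summed level ran from 28470 to 33710 CPM over the 16 libraries. Of these 9, 1 was called higher and 4 lower in palmitate against BSA, 2 higher and 1 lower in IL-1β against BSA, and 1 higher and 6 lower in palmitate + IL-1β against BSA. The sums with palmitate, 29240 to 31320 CPM, and with both agents, 28470 to 30460 CPM, all lay below those of BSA, 31600 to 33500 CPM. The IL-1β sums overlapped those of BSA. Pdgfra went against the sums with palmitate, at 209 to 224 CPM in BSA and 301 to 321 CPM with palmitate. The 8 leukocyte markers summed to 6.25, 4.30, 4.96 and 5.49 CPM in BSA, 5.24, 5.51, 5.51 and 5.34 with IL-1β, 6.32, 7.06, 5.73 and 7.15 with palmitate and 6.46, 7.91, 6.40 and 5.86 with both agents. Cd14 was their most abundant gene, and Adgre1 and Cd3e, which mark macrophages and T cells, had 3 counts or fewer in every library. Of the 4 leukocyte markers tested, 1 was higher (Cd14) and 1 lower (Lyz2) in palmitate against BSA. Cd14 was also called higher in palmitate + IL-1β against BSA (log2 fold change 1.03, SE 0.168, edgeR adjusted p = 5.87e-06) and against IL-1β (log2 fold change 0.84, SE 0.168, edgeR adjusted p = 0.000178). The leukocyte sums with IL-1β lay within the range of BSA. The 4 pericyte and smooth muscle markers summed to 79.6, 77.8, 89.6 and 84.6 CPM in BSA, 90.2, 92.3, 101 and 112 with IL-1β, 90.99, 88.9, 77.3 and 86.6 with palmitate and 84.9, 85.9, 98.5 and 84.8 with both agents. Every IL-1β library lay above every BSA library in that sum, and palmitate and both agents overlapped BSA. The members did not share this order. Myh11 lay lower in every IL-1β library, 17.3 to 20.1 CPM, than in any BSA library, without a call, and Rgs5 and Des overlapped BSA. Cspg4 was the most abundant of the 4 and was called higher in IL-1β against BSA and lower in palmitate + IL-1β against IL-1β. Myh11, at 20.7 to 21.3 CPM in BSA, was called higher with palmitate, 21.9 to 26.9 CPM (log2 fold change 0.25, SE 0.0668, edgeR adjusted p = 0.00318), and with both agents, 21.5 to 26.8 CPM (log2 fold change 0.22, SE 0.067, edgeR adjusted p = 0.00758). Myh11 was also higher in palmitate + IL-1β against IL-1β. The other 3 of the 4 were not called with palmitate or with both agents against BSA. Rgs5 and Des ranged lower with palmitate than in BSA, with overlap. The median log2 fold change of the 4 against BSA was -0.115 with palmitate and -0.047 with both agents, so the list did not share the rise of Myh11. None of the 4 was at 3 counts or fewer in every library. These marker genes were named after their values were seen. Epithelial markers summed to 0.164 to 0.728 CPM and endothelial markers to 1.42 to 2.25 CPM. The label of fibroblasts was met by the collagen genes, while Lum, another of the 9 fibroblast markers, was low at 0.70 to 2.3 CPM. Markers shared with pericytes and smooth muscle were well above the counting floor of 0.0331 to 0.146 CPM, which corresponds to 3 counts. The part of these marker differences in the results below was not tested. In bulk RNA, fewer cells that express a gene and less of its RNA per cell cannot be told apart.

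Cells build cholesterol from acetyl-CoA through mevalonate, squalene and lanosterol, and the transcription factor SREBP2, encoded by Srebf2, drives the enzymes of that route. SREBP2 is held in the endoplasmic reticulum by its escort SCAP and the INSIG proteins when sterols are plentiful, and moves to the Golgi for cleavage when they are scarce. The liver X receptors (LXR) are nuclear receptors that oxysterols activate, and their targets export cholesterol and limit its uptake. The members were therefore read in roles, as 5 genes of SREBP control, 8 mevalonate and isoprenoid enzymes, 11 squalene and sterol enzymes, 2 LXR receptors, 4 LXR targets and 4 genes of sterol trafficking and storage. A gene was called higher or lower where its edgeR quasi-likelihood test gave a Benjamini-Hochberg adjusted p under 0.05 over all 16306 genes.

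With IL-1β most enzymes of the synthesis route fell together, from the first steps of mevalonate synthesis to the last steps of sterol synthesis. In IL-1β against BSA, 17 of the 34 members were called lower and 3 higher, where 4.97% of all genes tested were lower and 10.1% higher. The 17 comprised 16 of the 19 synthesis enzymes and Stard4. In palmitate against BSA, 5 members were lower (14.7%) and 3 higher (8.82%), with 17.5% of all genes lower and 19.8% higher. With upper-quartile scaling 11 members were lower (32.4%) and 2 higher (5.88%), beside 24.9% and 14.7% of all genes. The order of the shares called lower thus differed between the scalings. DESeq2 tested a larger set of 19649 genes, of which 13.6% were lower beside 14.7% of members, so its share of all genes has another base. The members called higher numbered 6 without BSA replicate 3, 5 without IL-1β replicate 5 and 5 without palmitate + IL-1β replicate 16. Without BSA replicate 3, 5 members were also higher in IL-1β against BSA.

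Given together, the agents left 19 members lower and 7 higher in palmitate + IL-1β against BSA, where 22.5% of all genes were lower and 24.8% higher. Against palmitate, palmitate + IL-1β had 18 members lower and 1 higher, beside 4.10% and 5.71% of all genes. That count of members higher was 2 without BSA replicate 1, BSA replicate 3 or palmitate + IL-1β replicate 16, 4 without IL-1β replicate 8, and 0 without palmitate replicate 11 or palmitate + IL-1β replicate 14. Against IL-1β, palmitate + IL-1β had 8 members lower and 2 higher, beside 16.1% and 18.9% of all genes. Comparisons that name the same group share its libraries, so their counts are not independent of each other. IL-1β against BSA and palmitate + IL-1β against palmitate share no library, and 16 members were called lower in both, 94.1% of the 17 and 88.9% of the 18. Of all genes tested, 324 were lower in both, 40.0% and 48.5% of the 810 and 668.

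**Figure D1:**
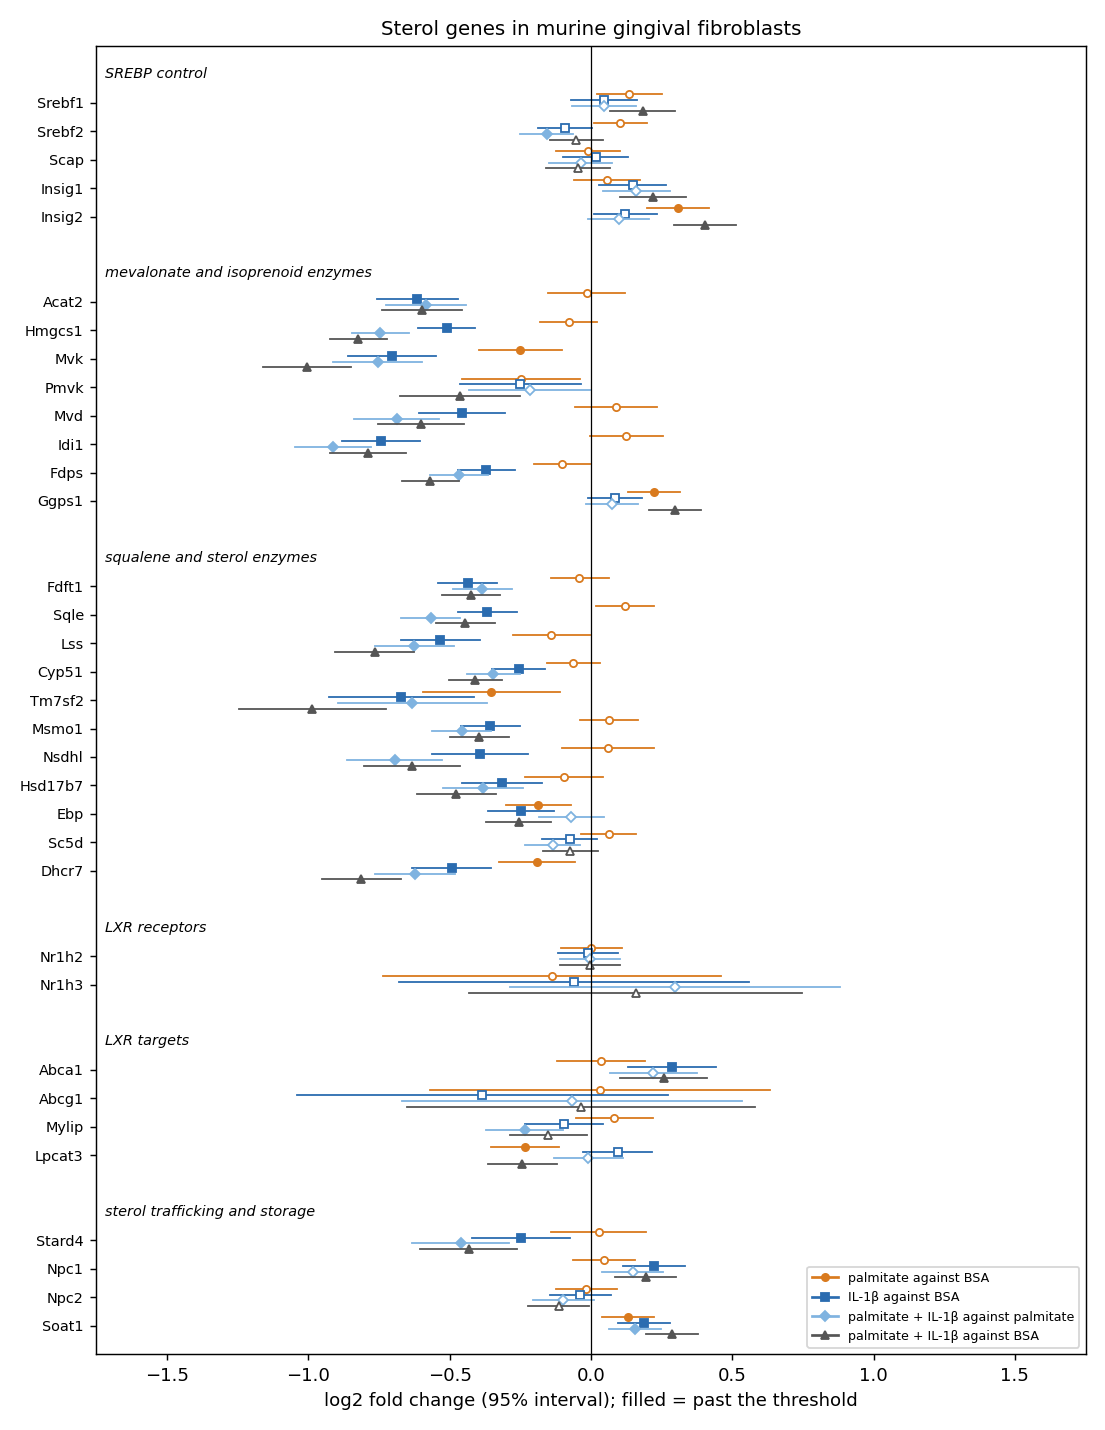
Log2 fold changes (horizontal axis) of the 34 members by role, with 95% intervals, in 4 comparisons that share groups. Filled points passed the threshold. The IL-1β comparisons place most enzymes to the left of 0, with Idi1 at -0.74 in IL-1β against BSA, while Scap and Nr1h2 lie near 0.

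Per kilobase of exon, the members spanned a wide range of levels in BSA. Hmgcs1 was the highest at 51.99 ± 4.05 CPM per kb (SD, n = 4), followed by Cyp51 at 30.5 ± 2.19. Npc2 and Fdft1 came next, at 23.2 ± 1.23 and 22.9 ± 1.18 CPM per kb, and did not differ beyond their spread. Srebf2 stood at 13.6 ± 0.448 CPM per kb, Srebf1 at 7.30 ± 0.347 and Scap at 2.75 ± 0.192. Insig1 was at 18.2 ± 1.92 and Insig2 at 8.07 ± 0.696 on the same scale. Of the receptors, Nr1h2 was at 14.6 ± 0.612 CPM per kb and Nr1h3 at 0.112 ± 0.0218. Abca1 was at 13.3 ± 0.757, and Abcg1, the lowest of the 34, at 0.0693 ± 0.0200 CPM per kb. Tm7sf2 was the lowest enzyme at 0.984 ± 0.156 CPM per kb. These lengths are those of all annotated exons joined, and the transcripts in use may be shorter.

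Gene positions below are those of GENCODE vM39 on GRCm39. The mevalonate arm opens with Acat2 and Hmgcs1, which join acetyl-CoA units into HMG-CoA. Hmgcs1 (ENSMUSG00000093930.3, chr13:120151915-120170470) measured 253, 265, 303 and 274 CPM in BSA, 181, 183, 196 and 208 with IL-1β, 258, 264, 258 and 257 with palmitate and 147, 155, 160.1 and 157 with both agents. Its IL-1β libraries all lay below its BSA libraries, and its palmitate + IL-1β libraries lay lower still, under every IL-1β library. It fell with IL-1β (log2 fold change -0.51, SE 0.0497, edgeR adjusted p = 3.25e-09) and with both agents (log2 fold change -0.82, SE 0.0499, edgeR adjusted p = 5.39e-15), while palmitate alone gave -0.08 (SE 0.0493, edgeR adjusted p = 0.225). That palmitate difference passed the threshold with upper-quartile normalization (log2 fold change -0.15, adjusted p = 0.0127, against 0.0127 to 0.722 over every alternative). Added to IL-1β, palmitate lowered Hmgcs1 by a further step (log2 fold change -0.31, SE 0.05, edgeR adjusted p = 7.24e-06). Acat2 ranged from 14.5 to 16.04 CPM in BSA and from 9.45 to 10.4 CPM in IL-1β, a fall of -0.61 (SE 0.071, edgeR adjusted p = 1.08e-07). Hmgcs1, and below Idi1 and Sqle, were chosen for values in every library after their values had been seen.

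Mvk and Pmvk phosphorylate mevalonate in turn, and Mvd decarboxylates the product to the isoprene unit. Mvk (ENSMUSG00000041939.15, chr5:114582267-114601803) measured 18.8, 16.6, 21.6 and 21.3 CPM in BSA, 11.1, 12.3, 12.8 and 11.7 with IL-1β, 16.4, 15.9, 17.1 and 16.5 with palmitate and 10.3, 9.70, 9.13 and 9.76 with both agents. The IL-1β libraries were below all BSA libraries, and those of palmitate + IL-1β were lower than any other group's, while palmitate overlapped BSA. Mvk was lower with palmitate (log2 fold change -0.25, SE 0.0725, edgeR adjusted p = 0.00644), with IL-1β (log2 fold change -0.70, SE 0.0759, edgeR adjusted p = 2.6e-08) and with both (log2 fold change -1.01, SE 0.0763, edgeR adjusted p = 1.26e-12), the largest fall of any member in that comparison. Pmvk (ENSMUSG00000027952.17, chr3:89361758-89376323) measured 8.17, 6.98, 7.36 and 9.37 CPM in BSA, 6.01, 7.26, 7.53 and 5.88 with IL-1β, 6.80, 6.78, 6.83 and 6.41 with palmitate and 5.01, 6.02, 6.24 and 5.89 with both agents. All palmitate and palmitate + IL-1β libraries lay below all BSA libraries, whereas IL-1β overlapped BSA. Pmvk passed the threshold with both agents (log2 fold change -0.46, SE 0.104, edgeR adjusted p = 0.000416) but not with palmitate, at -0.25 (SE 0.102, edgeR adjusted p = 0.0552). The palmitate difference did pass without BSA replicate 2 or 3 or without IL-1β replicate 7 or 8 or without palmitate + IL-1β replicate 13 or with upper-quartile normalization or with at least 10 counts in every library or without mitochondrial and ribosomal RNA genes or with only the 8 libraries compared (log2 fold change -0.32 to -0.25, adjusted p 0.0129 to 0.0485, against 0.0129 to 0.249 over every alternative). In IL-1β against BSA Pmvk gave -0.25 (SE 0.104, edgeR adjusted p = 0.108) and passed with upper-quartile normalization (log2 fold change -0.30, adjusted p = 0.0469, against 0.0469 to 0.353 over every alternative). Mvd ranged from 15.3 to 18.2 CPM in BSA and from 10.8 to 12.9 CPM in IL-1β, -0.46 (SE 0.0744, edgeR adjusted p = 3.46e-05).

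Idi1 interconverts the isoprene units, and Fdps and Ggps1 lengthen them to farnesyl and geranylgeranyl diphosphate, the latter used to anchor proteins to membranes. Idi1 (ENSMUSG00000058258.16, chr13:8935537-8942487) measured 28.6, 28.4, 31.9 and 28.1 CPM in BSA, 14.5, 17.1, 18.4 and 19.7 with IL-1β, 30.3, 31.6, 33.2 and 32.5 with palmitate and 16.8, 17.3, 17.2 and 16.4 with both agents. Every library with IL-1β lay under 20 CPM and every library without it above 28 CPM, with or without palmitate. The fall was -0.74 (SE 0.0675, edgeR adjusted p = 7.15e-10) in IL-1β against BSA, the largest of the members there, and -0.91 (SE 0.0662, edgeR adjusted p = 1.12e-11) in palmitate + IL-1β against palmitate. Palmitate alone gave 0.12 (SE 0.0635, edgeR adjusted p = 0.126), and that difference passed the threshold without BSA replicate 3 (log2 fold change 0.17, adjusted p = 0.0466, against 0.0466 to 0.512 over every alternative). Fdps ranged from 70.2 to 76.1 CPM in BSA and from 55.2 to 59.8 CPM in IL-1β, -0.37 (SE 0.0495, edgeR adjusted p = 1.32e-06). In palmitate against BSA Fdps was at -0.10 (SE 0.0488, edgeR adjusted p = 0.1) and passed without BSA replicate 1 or with upper-quartile normalization or with at least 10 counts in every library (log2 fold change -0.17 to -0.12, adjusted p 0.00429 to 0.0477, against 0.00429 to 0.278 over every alternative). Ggps1 (ENSMUSG00000021302.11, chr13:14224331-14238073) went the other way, with 62.4, 62.7, 68.7 and 64.3 CPM in BSA, 65.7, 67.5, 68.5 and 71.8 with IL-1β, 78.4, 75.01, 75.3 and 72.3 with palmitate and 84.99, 77.3, 77.7 and 76.9 with both agents. All libraries with palmitate lay above all libraries without it. Ggps1 rose with palmitate (log2 fold change 0.22, SE 0.0456, edgeR adjusted p = 0.000197) and with both agents (log2 fold change 0.30, SE 0.0454, edgeR adjusted p = 2.04e-06), and was at 0.09 (SE 0.0459, edgeR adjusted p = 0.241) with IL-1β alone. No other enzyme of the 19 was called higher by edgeR in palmitate against BSA, where Sqle also had an unadjusted p under 0.05 and DESeq2 likewise called 1.

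Fdft1 commits farnesyl diphosphate to squalene, Sqle adds oxygen to squalene, and Lss folds it into lanosterol. Sqle (ENSMUSG00000022351.15, chr15:59186869-59203043) measured 69.9, 67.3, 76.95 and 75.99 CPM in BSA, 52.5, 54.1, 59.1 and 58.99 with IL-1β, 77.4, 78.1, 80.5 and 79.4 with palmitate and 51.8, 54.9, 56.5 and 49.6 with both agents. Its IL-1β libraries lay under all BSA libraries, and its palmitate libraries over them. Sqle fell with IL-1β (log2 fold change -0.37, SE 0.0513, edgeR adjusted p = 3e-06) and with both agents against palmitate (log2 fold change -0.57, SE 0.051, edgeR adjusted p = 1.19e-09). With palmitate alone the difference was 0.12 (SE 0.0503, edgeR adjusted p = 0.0574), and it passed without BSA replicate 3 or 4 or without IL-1β replicate 5 or 8 or without palmitate + IL-1β replicate 16 (log2 fold change 0.12 to 0.15, adjusted p 0.0242 to 0.0498, against 0.0242 to 0.421 over every alternative). Fdft1 ranged from 102 to 116 CPM in BSA and 72.3 to 86.8 CPM in IL-1β, -0.44 (SE 0.0509, edgeR adjusted p = 1.3e-07), and Lss from 44.1 to 55.1 CPM and 29.7 to 35.8 CPM. The fall of Lss was -0.53 (SE 0.0678, edgeR adjusted p = 1.33e-06) with IL-1β and -0.77 (SE 0.0679, edgeR adjusted p = 2.24e-10) with both agents. With palmitate alone Lss gave -0.14 (SE 0.066, edgeR adjusted p = 0.0984) and passed without BSA replicate 1 or 2 or with upper-quartile normalization or with no expression filter (log2 fold change -0.21 to -0.15, adjusted p 0.00948 to 0.0406, against 0.00948 to 0.432 over every alternative).

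Cyp51 removes the first methyl group of lanosterol, and Tm7sf2 reduces the double bond that this leaves. Cyp51 ranged from 167 to 192 CPM in BSA and from 147 to 155 CPM in IL-1β, -0.26 (SE 0.0458, edgeR adjusted p = 0.000125). With palmitate alone Cyp51 gave -0.06 (SE 0.0455, edgeR adjusted p = 0.308) and passed with upper-quartile normalization (log2 fold change -0.13, adjusted p = 0.0157, against 0.0157 to 0.661 over every alternative). Tm7sf2 (ENSMUSG00000024799.17, chr19:6112851-6118403) measured 5.80, 5.11, 4.12 and 4.33 CPM in BSA, 3.19, 2.89, 2.75 and 3.44 with IL-1β, 3.74, 3.93, 3.86 and 3.62 with palmitate and 2.49, 2.71, 2.25 and 2.36 with both agents. The 4 groups did not overlap, with BSA highest, then palmitate, then IL-1β, and palmitate + IL-1β lowest. Tm7sf2 was lower with IL-1β (log2 fold change -0.67, SE 0.126, edgeR adjusted p = 0.000235), with both agents (log2 fold change -0.99, SE 0.127, edgeR adjusted p = 1e-07) and with palmitate (log2 fold change -0.35, SE 0.119, edgeR adjusted p = 0.019). The call with palmitate was lost without BSA replicate 1 (log2 fold change -0.26, adjusted p = 0.108, against 0.00526 to 0.108 over every alternative). Beside IL-1β alone, both agents together gave -0.32 (SE 0.137, edgeR adjusted p = 0.073) and passed without IL-1β replicate 7 or with upper-quartile normalization (log2 fold change -0.38 to -0.35, adjusted p 0.0489 to 0.0494, against 0.0489 to 0.19 over every alternative).

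Msmo1, Nsdhl and Hsd17b7 strip the remaining pair of methyl groups, and all 3 were lower with IL-1β, at -0.36 (SE 0.0509, edgeR adjusted p = 4.26e-06), -0.39 (SE 0.0831, edgeR adjusted p = 0.000939) and -0.31 (SE 0.068, edgeR adjusted p = 0.00185). Msmo1 ranged from 142 to 171 CPM in BSA and 118 to 128 CPM in IL-1β, Nsdhl from 14.8 to 17.2 CPM and 9.72 to 13.5 CPM, and Hsd17b7 from 49.5 to 60.05 CPM and 37.8 to 48.9 CPM. In palmitate + IL-1β against IL-1β, Nsdhl was at -0.24 (SE 0.0864, edgeR adjusted p = 0.0296) and lost the call without IL-1β replicate 5 or 6 or without palmitate + IL-1β replicate 13 or 15 or with only the 8 libraries compared (log2 fold change -0.26 to -0.18, adjusted p 0.0527 to 0.134, against 0.00148 to 0.134 over every alternative). In that comparison Hsd17b7 was at -0.16 (SE 0.069, edgeR adjusted p = 0.0728) and passed without BSA replicate 2 or 3 or without IL-1β replicate 5 or 6 or with upper-quartile normalization or with no expression filter or without mitochondrial and ribosomal RNA genes (log2 fold change -0.22 to -0.16, adjusted p 0.00886 to 0.0478, against 0.00886 to 0.27 over every alternative). In palmitate against BSA it passed with upper-quartile normalization (log2 fold change -0.16, adjusted p = 0.0497, against 0.0497 to 0.693 over every alternative).

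Ebp shifts a double bond of the sterol ring, Sc5d introduces another and Dhcr7 removes one, Dhcr7 producing cholesterol itself. Dhcr7 (ENSMUSG00000058454.16, chr7:143376740-143402149) measured 18.3, 16.8, 18.4 and 18.04 CPM in BSA, 12.9, 13.2, 13.2 and 11.3 with IL-1β, 14.7, 15.3, 16.4 and 16.3 with palmitate and 9.77, 10.9, 10.3 and 9.72 with both agents. The 4 groups stood apart in the same order as for Tm7sf2, palmitate + IL-1β again lowest. Dhcr7 fell with IL-1β (log2 fold change -0.49, SE 0.0679, edgeR adjusted p = 2.27e-06) and with both agents (log2 fold change -0.81, SE 0.0683, edgeR adjusted p = 1.37e-11), and less steeply with palmitate (log2 fold change -0.19, SE 0.0655, edgeR adjusted p = 0.0215). The palmitate call was lost without BSA replicate 3 or without palmitate replicate 9 or 10 (log2 fold change -0.18 to -0.17, adjusted p 0.0506 to 0.0787, against 0.00206 to 0.0787 over every alternative). Ebp (ENSMUSG00000031168.15, chrX:8050773-8059795) measured 26.8, 27.7, 27.8 and 28.6 CPM in BSA, 21.4, 26.1, 22.4 and 23.6 with IL-1β, 24.5, 25.3, 23.2 and 24.3 with palmitate and 23.1, 23.7, 22.9 and 23.3 with both agents. All libraries that received an agent lay below all BSA libraries, and the groups given an agent overlapped one another. Ebp was lower with palmitate (log2 fold change -0.19, SE 0.0562, edgeR adjusted p = 0.00909), with IL-1β (log2 fold change -0.25, SE 0.0572, edgeR adjusted p = 0.00253) and with both (log2 fold change -0.26, SE 0.0565, edgeR adjusted p = 0.000366). Sc5d ranged from 76.2 to 88.8 CPM in BSA and 74.1 to 84.6 CPM in IL-1β, at -0.07 (SE 0.0484, edgeR adjusted p = 0.334). It passed as lower in palmitate + IL-1β against BSA without BSA replicate 1 or with upper-quartile normalization (log2 fold change -0.15 to -0.13, adjusted p 0.00776 to 0.0303, against 0.00776 to 0.548 over every alternative). In palmitate + IL-1β against palmitate Sc5d gave -0.14 (SE 0.048, edgeR adjusted p = 0.0712) and passed without BSA replicate 1 or without palmitate + IL-1β replicate 16 or with upper-quartile normalization or with no expression filter or with only the 8 libraries compared (log2 fold change -0.16 to -0.14, adjusted p 0.0243 to 0.0462, against 0.0243 to 0.203 over every alternative).

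Summed over the 19 enzymes, the route measured 1211, 1213, 1355 and 1304 CPM in BSA, 948, 963, 1018 and 1040 with IL-1β, 1237, 1250, 1257 and 1267 with palmitate and 899, 939, 924 and 912 with both agents. Every sum with IL-1β was below every sum without it, while palmitate lay within the range of BSA. Group means were 1271 ± 70.97 CPM in BSA, 992 ± 43.9 with IL-1β, 1253 ± 12.6 with palmitate and 918 ± 17.3 with both agents (SD, n = 4). The median log2 fold change of the 19 was -0.39 in IL-1β against BSA, where all genes tested had -0.01, and -0.57 in palmitate + IL-1β against palmitate, where all genes had 0.01. In palmitate against BSA the median was -0.06 beside 0.00 over all genes, with 4 enzymes lower and 1 higher where 17.5% and 19.8% of all genes were. In palmitate + IL-1β against BSA it was -0.57 beside 0.00, with 17 lower and 1 higher (22.5% and 24.8% of all genes). Against IL-1β it was -0.15 beside 0.01, with 7 lower and 1 higher (16.1% and 18.9% of all genes). The 16 enzymes lower with IL-1β against BSA were also 16 in each fit that left out 1 library. With upper-quartile scaling, which shifted all genes by a median of -0.07 in palmitate against BSA, 10 enzymes were lower there, beside 24.9% of all genes.

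**Figure D2:**
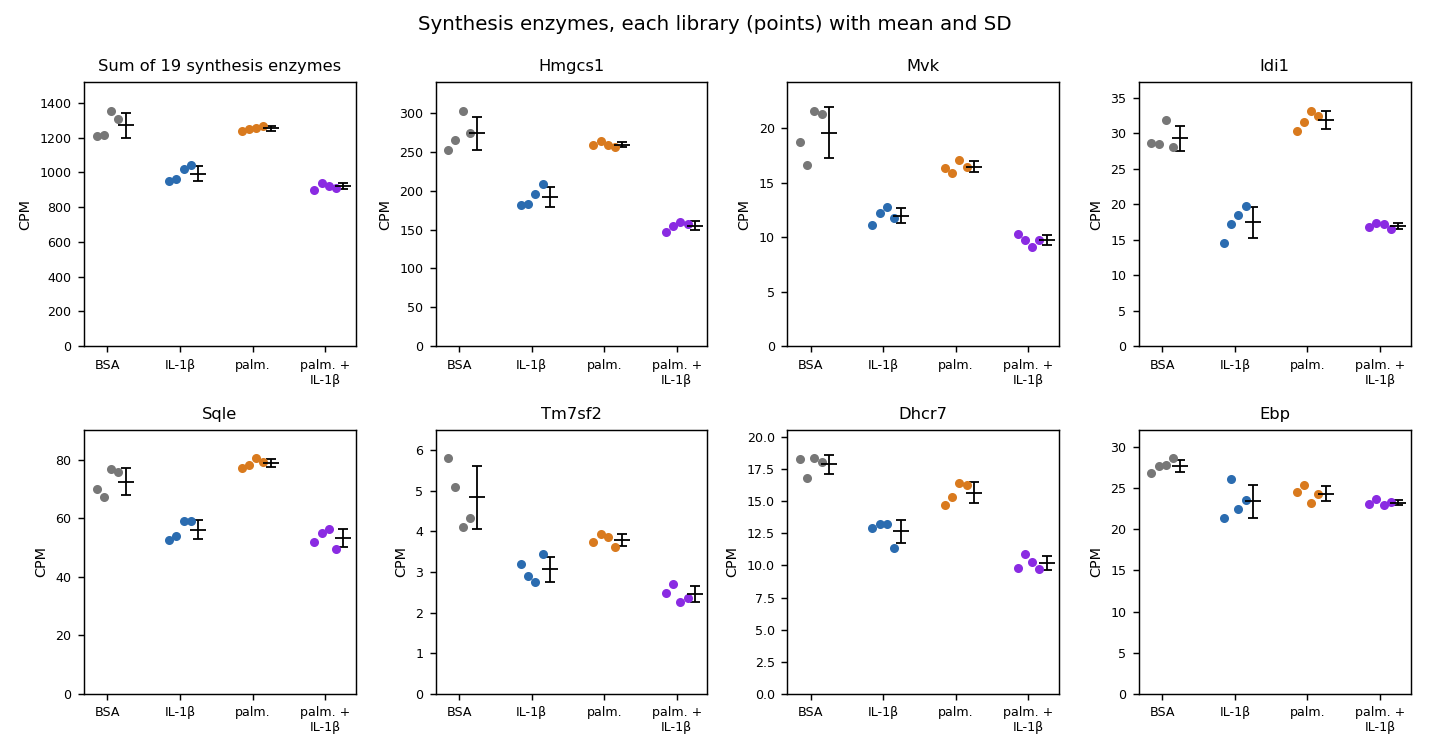
CPM (vertical axis, from 0) of the summed 19 synthesis enzymes and of 7 of them in each of the 16 libraries (points) by group, with the mean and SD beside them. The sums with IL-1β stay at or below 1040 CPM and those without it at or above 1211 CPM.

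An interaction contrast asked whether palmitate acted differently with and without IL-1β. By edgeR none of the 34 members passed, while 0.159% of all genes had a higher and 1.83% a lower term. At an unadjusted p under 0.05 there were 4 members with a lower term and 1 with a higher one, and DESeq2 called 0 of either. The 4 were Hmgcs1, Mvd, Sqle and Nsdhl and the other was Ebp, at -0.23, -0.23, -0.20, -0.30 and 0.18. The 95% interval of the term was -0.38 to -0.09 for Hmgcs1 and -0.36 to 0.02 for Idi1. The Hmgcs1 term had edgeR adjusted p = 0.0909 and passed without BSA replicate 3 or with no expression filter (log2 fold change -0.29 to -0.24, adjusted p 0.00846 to 0.0235, against 0.00846 to 0.266 over every alternative).

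Of the 5 genes of SREBP control, edgeR called 0 lower in IL-1β against BSA, beside 4.97% of all genes, with 0 lower at an unadjusted p under 0.05 and 0 by DESeq2. It also called 0 higher there, beside 10.1% of all genes, with 2 at an unadjusted p under 0.05, Insig1 and Insig2, and 0 by DESeq2. At such shares, 0 of 5 genes is close to what all genes gave. Srebf2 (ENSMUSG00000022463.9, chr15:82031382-82093201), which encodes SREBP2, measured 120.5, 128, 129 and 129 CPM in BSA, 108, 121, 125 and 122 with IL-1β, 129, 136, 141 and 139 with palmitate and 117, 122, 129 and 119.9 with both agents. Groups overlapped throughout, except that the IL-1β libraries all lay below the palmitate libraries. Srebf2 was lower in palmitate + IL-1β against palmitate (log2 fold change -0.16, SE 0.0458, edgeR adjusted p = 0.0249) and gave -0.09 (SE 0.046, edgeR adjusted p = 0.194) in IL-1β against BSA. The former call was lost without palmitate replicate 10, 11 or 12 or without palmitate + IL-1β replicate 13, 14 or 16 (log2 fold change -0.16 to -0.14, adjusted p 0.0536 to 0.0938, against 0.00898 to 0.0938 over every alternative). In IL-1β against BSA Srebf2 passed as lower with upper-quartile normalization (log2 fold change -0.14, adjusted p = 0.032, against 0.032 to 0.541 over every alternative), and in palmitate + IL-1β against BSA with upper-quartile normalization (log2 fold change -0.13, adjusted p = 0.0154, against 0.0154 to 0.524 over every alternative). In palmitate against BSA it gave 0.10 (SE 0.0458, edgeR adjusted p = 0.0773) and passed as higher without palmitate replicate 9 (log2 fold change 0.13, adjusted p = 0.0458, against 0.0458 to 0.577 over every alternative).

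Scap, the escort that carries SREBP to the Golgi, was called in no comparison by edgeR and had no unadjusted p under 0.05. Scap (ENSMUSG00000032485.15, chr9:110158229-110214024) measured 33.2, 33.7, 38.6 and 34.8 CPM in BSA, 33.5, 35.1, 37.7 and 35.1 with IL-1β, 34.4, 33.1, 34.5 and 37.5 with palmitate and 35.8, 34.3, 32.9 and 32.6 with both agents. All 4 groups overlapped. Its difference was 0.02 (SE 0.0558, edgeR adjusted p = 0.893) with IL-1β and -0.01 (SE 0.0554, edgeR adjusted p = 0.909) with palmitate, with 95% intervals of -0.10 to 0.13 and -0.12 to 0.10. Srebf1 (ENSMUSG00000020538.16, chr11:60089913-60113407), which encodes the SREBP1 proteins that act mainly on fatty acid genes, measured 42.5, 42.9, 45.9 and 40.97 CPM in BSA, 40.8, 43.8, 49.03 and 43.95 with IL-1β, 47.9, 47.4, 46.97 and 46.8 with palmitate and 47.6, 52.9, 51.2 and 43.6 with both agents. Palmitate libraries were just above all BSA libraries, and the other groups overlapped. Srebf1 rose with both agents (log2 fold change 0.18, SE 0.0563, edgeR adjusted p = 0.00803), a call lost without palmitate + IL-1β replicate 14 or with upper-quartile normalization (log2 fold change 0.10 to 0.13, adjusted p 0.0663 to 0.118, against 0.000763 to 0.118 over every alternative). With palmitate alone it gave 0.14 (SE 0.0565, edgeR adjusted p = 0.0587) and passed without BSA replicate 3 or without IL-1β replicate 5 or without palmitate + IL-1β replicate 16 or with only the 8 libraries compared (log2 fold change 0.13 to 0.17, adjusted p 0.0258 to 0.0488, against 0.0258 to 0.36 over every alternative). Beside IL-1β alone, both agents together gave 0.14 (SE 0.0566, edgeR adjusted p = 0.063) and passed without IL-1β replicate 7 or without palmitate + IL-1β replicate 16 (log2 fold change 0.18, adjusted p 0.00963 to 0.0192, against 0.00963 to 0.272 over every alternative).

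The INSIG genes encode the anchors that retain SCAP in the endoplasmic reticulum, and Insig1 is itself a target of SREBP. Insig1 (ENSMUSG00000045294.12, chr5:28276315-28283668) measured 78.9, 92.4, 100.3 and 84.4 CPM in BSA, 92.6, 94.2, 98.4 and 109 with IL-1β, 90.8, 91.5, 95.5 and 92.6 with palmitate and 99.3, 108, 102 and 105 with both agents. Its palmitate + IL-1β libraries all lay above its palmitate libraries, and it overlapped BSA in every group. Like Ggps1 and unlike the 17 enzymes that fell, Insig1 was higher with both agents (log2 fold change 0.22, SE 0.0572, edgeR adjusted p = 0.0024) and gave 0.15 (SE 0.0575, edgeR adjusted p = 0.0879) with IL-1β alone. The IL-1β difference passed as higher without BSA replicate 3 (log2 fold change 0.21, adjusted p = 0.00672, against 0.00672 to 0.373 over every alternative), and that of palmitate + IL-1β against palmitate without BSA replicate 1 or 3 or without IL-1β replicate 8 or with only the 8 libraries compared (log2 fold change 0.15 to 0.16, adjusted p 0.0184 to 0.0445, against 0.0184 to 0.205 over every alternative). Insig2 (ENSMUSG00000003721.15, chr1:121181760-121260400) measured 43.95, 46.04, 53.6 and 47.9 CPM in BSA, 48.98, 48.9, 55.5 and 54.5 with IL-1β, 61.3, 59.4, 56.00 and 59.9 with palmitate and 61.9, 63.2, 64.5 and 63.5 with both agents. Libraries with palmitate lay above all libraries without it, and palmitate + IL-1β above palmitate. Insig2 rose with palmitate (log2 fold change 0.31, SE 0.0538, edgeR adjusted p = 2.5e-05), with both agents (log2 fold change 0.40, SE 0.0536, edgeR adjusted p = 1.77e-07) and when palmitate was added to IL-1β (log2 fold change 0.28, SE 0.0537, edgeR adjusted p = 8.47e-05). With IL-1β alone it gave 0.12 (SE 0.0544, edgeR adjusted p = 0.141) and passed without BSA replicate 3 (log2 fold change 0.18, adjusted p = 0.0183, against 0.0183 to 0.466 over every alternative).

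Of the 2 LXR receptors, edgeR called 0 in each comparison, with 0 at an unadjusted p under 0.05 and 0 by DESeq2. DESeq2 did not give an adjusted p for Nr1h3 in every comparison. Between 2 groups, 4.10% to 24.8% of all genes were called per direction, so 0 of 2 says little about the receptors. Nr1h2 (ENSMUSG00000060601.14, chr7:44199036-44203406), the widely expressed receptor LXRβ, measured 50.6, 53.3, 49.2 and 48.6 CPM in BSA, 52.7, 51.3, 52.6 and 43.6 with IL-1β, 50.9, 50.9, 50.6 and 49.6 with palmitate and 49.04, 48.2, 51.5 and 52.7 with both agents. The groups overlapped fully, with IL-1β replicate 8 the lowest library. Its log2 fold change was 0.00 with palmitate (95% interval -0.10 to 0.11) and -0.01 with IL-1β (-0.12 to 0.10), edgeR adjusted p = 0.987 and 0.923. Nr1h3 (ENSMUSG00000002108.11, chr2:91014394-91033417), which encodes LXRα, measured 0.503, 0.452, 0.610 and 0.699 CPM in BSA, 0.491, 0.664, 0.506 and 0.497 with IL-1β, 0.729, 0.540, 0.331 and 0.452 with palmitate and 0.623, 0.563, 0.868 and 0.442 with both agents. These levels, under 1 CPM, overlapped across the groups and allow only wide intervals, -0.74 to 0.46 with palmitate and -0.68 to 0.56 with IL-1β, so a moderate change was not detectable at this depth.

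The 4 LXR targets did not move together. Abca1 (ENSMUSG00000015243.5, chr4:53030787-53159900), which exports cholesterol to lipid-poor apolipoproteins, measured 161, 159, 178 and 158 CPM in BSA, 188, 190.0, 197 and 224 with IL-1β, 176, 179.9, 152 and 163 with palmitate and 197, 186, 224 and 175 with both agents. Every IL-1β library exceeded all BSA and all palmitate libraries, while palmitate overlapped BSA. Abca1 rose with IL-1β (log2 fold change 0.29, SE 0.0736, edgeR adjusted p = 0.0124) and with both agents (log2 fold change 0.26, SE 0.0734, edgeR adjusted p = 0.00752) and gave 0.04 (SE 0.0736, edgeR adjusted p = 0.748) with palmitate. Compared with palmitate alone, both agents gave 0.22 (SE 0.0734, edgeR adjusted p = 0.068) and passed without IL-1β replicate 8 or without palmitate replicate 10 or without palmitate + IL-1β replicate 16 or with DESeq2 or with no expression filter (log2 fold change 0.20 to 0.27, adjusted p 0.000807 to 0.0486, against 0.000807 to 0.177 over every alternative). Abcg1 (ENSMUSG00000024030.8, chr17:31276649-31336969), which loads cholesterol onto high-density lipoprotein, measured 0.385, 0.646, 0.687 and 0.419 CPM in BSA, 0.368, 0.469, 0.475 and 0.290 with IL-1β, 0.631, 0.518, 0.441 and 0.616 with palmitate and 0.453, 0.662, 0.579 and 0.368 with both agents. Its groups overlapped under 1 CPM, and its intervals were wide, -0.57 to 0.63 with palmitate and -1.04 to 0.27 with IL-1β.

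Lpcat3 (ENSMUSG00000004270.14, chr6:124639765-124684440), which places polyunsaturated fatty acids into membrane phospholipids, measured 19.6, 21.6, 19.1 and 20.1 CPM in BSA, 22.02, 20.5, 21.97 and 21.5 with IL-1β, 15.9, 17.3, 17.2 and 17.9 with palmitate and 17.6, 17.5, 16.9 and 15.9 with both agents. All libraries with palmitate lay below all libraries without it, with IL-1β or not. Lpcat3 fell with palmitate (log2 fold change -0.23, SE 0.0594, edgeR adjusted p = 0.00204), with both agents against BSA (log2 fold change -0.24, SE 0.0595, edgeR adjusted p = 0.00105) and against IL-1β (log2 fold change -0.34, SE 0.0598, edgeR adjusted p = 3.35e-05). Mylip (ENSMUSG00000038175.11, chr13:45543215-45565501), a ubiquitin ligase that marks lipoprotein receptors for degradation, measured 18.4, 19.3, 18.9 and 18.7 CPM in BSA, 18.7, 15.6, 17.9 and 18.3 with IL-1β, 19.9, 21.2, 19.4 and 18.8 with palmitate and 16.8, 15.6, 16.5 and 19.01 with both agents. Groups overlapped apart from IL-1β, which lay below palmitate. Mylip was lower in palmitate + IL-1β against palmitate (log2 fold change -0.23, SE 0.0664, edgeR adjusted p = 0.0196), a call lost without palmitate replicate 10 or without palmitate + IL-1β replicate 14 or 15 (log2 fold change -0.22 to -0.19, adjusted p 0.0522 to 0.124, against 0.0042 to 0.124 over every alternative). In palmitate + IL-1β against BSA it gave -0.15 (SE 0.067, edgeR adjusted p = 0.0627) and passed without BSA replicate 1 or without palmitate + IL-1β replicate 16 or with upper-quartile normalization or with no expression filter or with at least 10 counts in every library or without mitochondrial and ribosomal RNA genes (log2 fold change -0.23 to -0.17, adjusted p 0.00492 to 0.0479, against 0.00492 to 0.165 over every alternative).

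**Figure D3:**
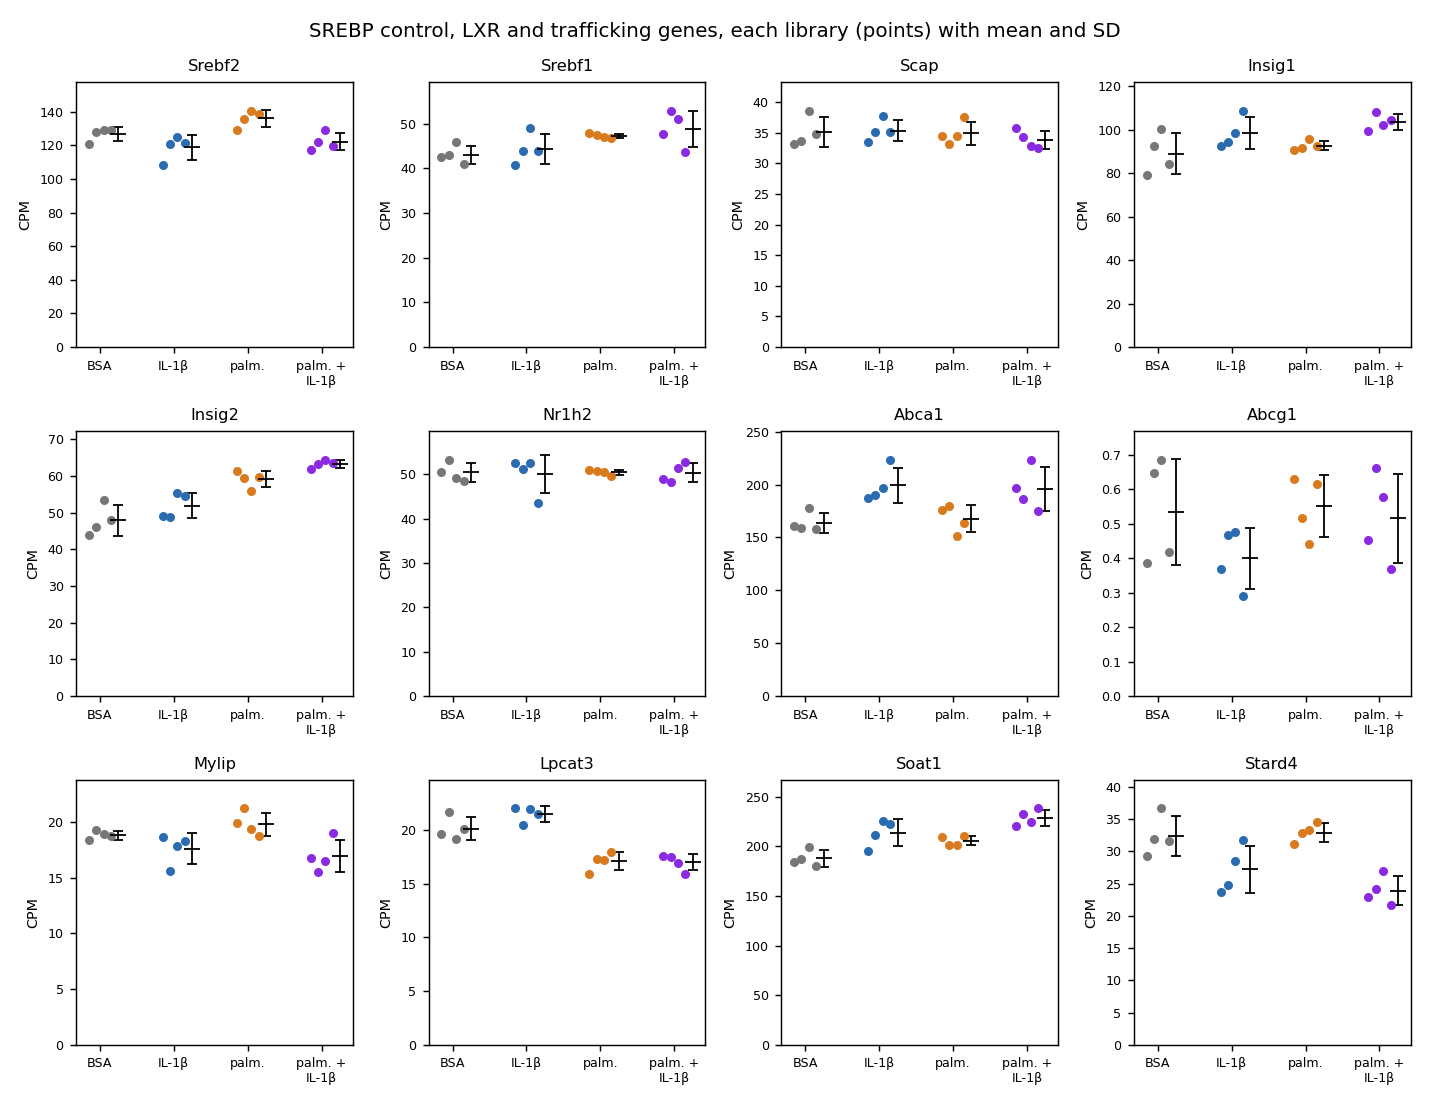
CPM (vertical axis, from 0) of 12 genes of SREBP control, LXR and sterol trafficking in each of the 16 libraries (points) by group, with the mean and SD beside them. Insig2 is higher and Lpcat3 lower in the groups with palmitate, while Scap and Nr1h2 overlap in all 4 groups.

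Of the trafficking genes, Stard4 carries cholesterol between membranes in the cytosol and is, like the enzymes, a target of SREBP2. Stard4 (ENSMUSG00000024378.10, chr18:33332197-33346942) measured 29.2, 31.9, 36.7 and 31.6 CPM in BSA, 23.7, 24.8, 28.5 and 31.7 with IL-1β, 31.1, 32.8, 33.3 and 34.5 with palmitate and 22.9, 24.1, 26.9 and 21.7 with both agents. The palmitate + IL-1β libraries lay below all BSA and palmitate libraries, and those of IL-1β overlapped BSA. Stard4 fell with both agents against BSA (log2 fold change -0.43, SE 0.0825, edgeR adjusted p = 0.00014) and against palmitate (log2 fold change -0.46, SE 0.0822, edgeR adjusted p = 0.000543). With IL-1β alone it was near the threshold (log2 fold change -0.25, SE 0.0826, edgeR adjusted p = 0.0461) and lost the call without BSA replicate 2, 3 or 4 or without IL-1β replicate 5, 6 or 7 or without palmitate replicate 9, 10, 11 or 12 or without palmitate + IL-1β replicate 13 or 14 or with only the 8 libraries compared (log2 fold change -0.28 to -0.18, adjusted p 0.0512 to 0.134, against 0.00065 to 0.134 over every alternative). Beside IL-1β alone, both agents together gave -0.18 (SE 0.0841, edgeR adjusted p = 0.0938) and passed without IL-1β replicate 5 or without palmitate + IL-1β replicate 15 or with upper-quartile normalization or with no expression filter (log2 fold change -0.25 to -0.21, adjusted p 0.00809 to 0.0434, against 0.00809 to 0.326 over every alternative).

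Soat1 (ENSMUSG00000026600.13, chr1:156252095-156303864), which esterifies cholesterol for storage, measured 184, 187, 199 and 180.2 CPM in BSA, 195, 212, 225 and 222 with IL-1β, 209, 202, 202 and 211 with palmitate and 220.4, 233, 224 and 238 with both agents. Palmitate libraries were above all BSA libraries, and palmitate + IL-1β libraries above both groups. Soat1 rose with IL-1β (log2 fold change 0.19, SE 0.0454, edgeR adjusted p = 0.00376), with both agents (log2 fold change 0.29, SE 0.0452, edgeR adjusted p = 3.74e-06) and with palmitate (log2 fold change 0.13, SE 0.0453, edgeR adjusted p = 0.0216). The palmitate call was lost without BSA replicate 1, 2 or 4 or without palmitate replicate 9 or 12 or with upper-quartile normalization or with no expression filter (log2 fold change 0.06 to 0.12, adjusted p 0.0559 to 0.261, against 0.00674 to 0.261 over every alternative). Compared with palmitate alone, both agents gave 0.15 (SE 0.0452, edgeR adjusted p = 0.025) and lost the call without palmitate replicate 10 or 11 or without palmitate + IL-1β replicate 14 or 16 or with no expression filter (log2 fold change 0.14, adjusted p 0.062 to 0.0813, against 0.0137 to 0.0813 over every alternative).

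Npc1 and Npc2 hand cholesterol out of lysosomes. Npc1 (ENSMUSG00000024413.15, chr18:12322749-12369550) measured 108, 104, 116 and 108 CPM in BSA, 118, 125, 128 and 139 with IL-1β, 111, 113, 108 and 118 with palmitate and 128, 131, 129.5 and 111 with both agents. The IL-1β libraries lay above all BSA libraries, while palmitate + IL-1β overlapped BSA through its replicate 16. Npc1 rose with IL-1β (log2 fold change 0.22, SE 0.053, edgeR adjusted p = 0.0033) and with both agents (log2 fold change 0.19, SE 0.0528, edgeR adjusted p = 0.00302), the latter call lost with upper-quartile normalization (log2 fold change 0.12, adjusted p = 0.0608, against 0.000108 to 0.0608 over every alternative). Compared with palmitate alone, both agents gave 0.15 (SE 0.0528, edgeR adjusted p = 0.0743) and passed without IL-1β replicate 8 or without palmitate + IL-1β replicate 16 (log2 fold change 0.15 to 0.20, adjusted p 0.00722 to 0.0444, against 0.00722 to 0.224 over every alternative). Npc2 ranged from 134 to 152 CPM in BSA and 127 to 140.5 CPM in palmitate + IL-1β, at -0.11 (SE 0.0529, edgeR adjusted p = 0.0772), and passed as lower without BSA replicate 3 or without IL-1β replicate 8 or without palmitate + IL-1β replicate 15 or with upper-quartile normalization or with no expression filter or with at least 10 counts in every library or without mitochondrial and ribosomal RNA genes or with only the 8 libraries compared (log2 fold change -0.19 to -0.11, adjusted p 0.00434 to 0.0496, against 0.00434 to 0.192 over every alternative). Against IL-1β, palmitate + IL-1β gave -0.08 (SE 0.0531, edgeR adjusted p = 0.285) for Npc2, which passed without IL-1β replicate 8 (log2 fold change -0.14, adjusted p = 0.0226, against 0.0226 to 0.573 over every alternative).

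Genes outside the 34 but in the same pathways were read from 7 lists of 62 genes in all, of which 60 were tested. With palmitate 11 of the 60 were higher and 16 lower, beside 19.8% and 17.5% of all genes tested. With IL-1β the counts were 11 and 6, beside 10.1% and 4.97%, and with both agents 16 and 21, beside 24.8% and 22.5%. The counts by list that follow are small and are descriptions to be read against the same shares of all genes. Among 6 oxysterol and bile acid enzymes, 2 were higher and 3 lower with palmitate, the same with both agents, and 2 were higher with IL-1β. Ch25h, which hydroxylates cholesterol to an oxysterol that both activates LXR and holds back SREBP2, measured 1.48, 1.84, 1.83 and 1.64 CPM in BSA, 3.68, 2.97, 2.56 and 3.60 with IL-1β, 10.6, 10.8, 11.9 and 12.2 with palmitate and 11.9, 12.97, 12.8 and 9.32 with both agents. BSA was lowest, IL-1β above it, and all libraries with palmitate higher than both. Ch25h rose with palmitate (log2 fold change 2.75, SE 0.127, edgeR adjusted p = 8.26e-18) and with IL-1β (log2 fold change 0.91, SE 0.152, edgeR adjusted p = 5.31e-05), and its interaction term was negative (log2 fold change -0.85, SE 0.182, edgeR adjusted p = 0.00479). Cyp7b1, which breaks down such oxysterols, measured 3.20, 3.88, 4.04 and 4.44 CPM in BSA, 7.53, 7.93, 8.04 and 7.91 with IL-1β, 38.5, 41.2, 34.8 and 37.2 with palmitate and 40.3, 41.1, 38.4 and 32.4 with both agents. The groups had the same order, those with palmitate overlapping each other far above the rest. Cyp7b1 rose with palmitate (log2 fold change 3.30, SE 0.0874, edgeR adjusted p = 5.96e-24) and with IL-1β (log2 fold change 1.02, SE 0.103, edgeR adjusted p = 7.21e-09), with an interaction term of -1.02 (SE 0.123, edgeR adjusted p = 9.47e-07).

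Among 6 genes of lipoprotein uptake and ester hydrolysis, 1 was higher and 1 lower with palmitate, 2 and 1 with both agents, and 2 were higher with IL-1β. Lrp8, a receptor of the lipoprotein receptor family, rose from 34.3 ± 2.33 to 59.8 ± 3.45 CPM with palmitate (log2 fold change 0.80, SE 0.0566, edgeR adjusted p = 3.39e-13) and reached 80.6 ± 5.16 CPM with both agents (SD, n = 4). Vldlr, which binds triglyceride-rich lipoproteins, fell with palmitate (log2 fold change -0.24, SE 0.0426, edgeR adjusted p = 3e-05). Of 9 LXR partners and further LXR targets, 7 were tested, 2 higher and 2 lower both with palmitate and with both agents, and 2 higher with IL-1β. Arl4c, a small GTPase tied to cholesterol export, rose from 16.6 ± 0.143 to 32.3 ± 1.74 CPM (log2 fold change 0.96, SE 0.0522, edgeR adjusted p = 5.17e-16), and its interaction term was -0.51 (SE 0.0727, edgeR adjusted p = 1.68e-05). Pltp, the phospholipid transfer protein, fell from 20.7 ± 1.06 to 12.7 ± 0.615 CPM (log2 fold change -0.73, SE 0.072, edgeR adjusted p = 7.94e-10). Known targets of LXR outside the 4 members moved in both directions.

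Among 8 genes of SREBP processing and turnover, 1 was higher with palmitate, Erlin1 (log2 fold change 0.32, SE 0.0507, edgeR adjusted p = 5.12e-06), which takes part in degradation at the endoplasmic reticulum, while 1 was higher and 1 lower with IL-1β and 2 and 1 with both agents. Of 14 sterol transfer proteins, 2 were higher and 4 lower with palmitate, and the largest changes were in Gramd1c (log2 fold change -1.005, SE 0.295, edgeR adjusted p = 0.00712) and Osbpl10 (log2 fold change -0.48, SE 0.163, edgeR adjusted p = 0.0202). With both agents 4 were higher and 5 lower, and with IL-1β 2 were higher. The call of Osbpl10 was lost without BSA replicate 3 or without palmitate replicate 9 (log2 fold change -0.41 to -0.36, adjusted p 0.064 to 0.103, against 0.00742 to 0.103 over every alternative). Of 10 genes of the isoprenoid branches, 2 were higher and 1 lower with palmitate, Pggt1b at 0.24 (SE 0.0509, edgeR adjusted p = 0.0003) and Fnta at -0.24 (SE 0.0579, edgeR adjusted p = 0.00117), subunits of the enzymes that attach geranylgeranyl and farnesyl groups. With both agents 4 were higher and 1 lower, and with IL-1β 2 were higher. Of 9 fatty acid genes that SREBP1 drives, 1 was higher and 5 lower with palmitate, and 5 were lower with IL-1β. With both agents 8 of the 9 were lower against BSA, 6 against IL-1β and 7 against palmitate, beside 22.5%, 16.1% and 4.10% of all genes. Acss2, which makes acetyl-CoA from acetate, fell with palmitate (log2 fold change -0.41, SE 0.0931, edgeR adjusted p = 0.000718), and Fasn, the fatty acid synthase, rose (log2 fold change 0.31, SE 0.084, edgeR adjusted p = 0.00845).

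The promoters of the members were searched for the letters that SREBP2 and its partner NF-Y bind. Of the 34 members, 28 had a window in the promoter table used, which spans 250 bases before to 50 bases after start sites in RefSeq (GRCm38.p6). Sqle, Fdps, Fdft1, Stard4, Abcg1 and Npc1 were not in that table. Motifs were sought on both strands, the sterol regulatory core CACCCCAC, its shorter form CACCCC, which lies inside it, the CCAAT box of NF-Y, and the DR4 repeat of LXR. CCAAT was present for 15 of 16 enzymes with a window (93.8%) and for 23 of the 28 members (82.1%), beside 41.1% of 27025 genes with a window. The enzyme without it was Acat2, which was called lower with IL-1β. Ggps1, Sc5d and Pmvk held it and were not called in IL-1β against BSA. Any link between these letters and the changes in RNA was not tested. CACCCCAC was present for 2 of the 16 enzymes (12.5%), Hmgcs1 and Acat2, beside 3.30% of all genes, and CACCCC for 4 of the 16 beside 28.4% of all genes. DR4 was present in no window of the 28 members and for 0.0481% of all genes. A match only describes these letters, and genes with several start sites had several windows.

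Hmgcs1 and Acat2 are shown because they hold the sterol core, and Mvk because it holds CCAAT boxes alone and fell furthest with both agents. Capitals mark CACCCCAC or CACCCC, and CCAAT, which reads ATTGG on the other strand. The stretches begin 200 bases before the RefSeq start and stop before any annotated exon of the gene, and each matched GRCm39 exactly at 1 place. They lie at chr13:120151687-120151886 (plus strand), chr17:13179642-13179812 (minus strand) and chr5:114582130-114582266 (plus strand).
Hmgcs1: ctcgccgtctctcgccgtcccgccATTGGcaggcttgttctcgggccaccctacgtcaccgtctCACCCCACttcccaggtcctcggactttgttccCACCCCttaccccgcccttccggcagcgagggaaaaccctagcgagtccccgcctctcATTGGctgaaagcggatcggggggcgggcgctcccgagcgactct
Acat2: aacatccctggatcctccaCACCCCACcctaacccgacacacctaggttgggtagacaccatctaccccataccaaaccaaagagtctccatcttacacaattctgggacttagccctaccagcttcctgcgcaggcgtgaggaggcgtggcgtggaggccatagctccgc
Mvk: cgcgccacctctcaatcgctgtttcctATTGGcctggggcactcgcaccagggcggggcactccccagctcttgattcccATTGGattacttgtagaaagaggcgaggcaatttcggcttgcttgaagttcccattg

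Some members share sequence with other genes, which makes their counts less certain. The paper's methods name HTSeq but not how it treated reads that aligned to several places. Of the main transcript of Fdps, 81.3% matched Gm3571 at 95% identity or more, and 55.4% of that of Acat2 matched Acat3. Fdft1 shared 35.9% with Gm6781, Idi1 26.4% with Idi1-ps1 and Ggps1 17.5% with Gm5630. On the opposite strand, Lpcat3 overlapped Emg1 over 38.7% of its transcript, Fdft1 overlapped Ctsb over 34.1%, Cyp51 overlapped Akap9 over 24.2% and Ch25h overlapped Gm26902 over 50.3%. The deposited table is named as counted by strand, but the setting itself was not given in the sources used here, so such pairs may not be fully told apart.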

How the data were processed

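RNA of mGF was sequenced in 16 libraries. The authors used Trimmomatic 0.39 for trimming, STAR 2.7.10a for alignment to GRCm39 and HTSeq 2.0.9 for gene counts, and deposited the raw counts without filter or normalization. The methods describe oligo(dT)-primed cDNA and the labels a stranded total RNA kit, so which RNAs were captured is not settled. The 5 summary entries of HTSeq, 18.3% to 21.4% of a library, were left out.

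Here the counts were analysed with edgeR 4.0.16 in R 4.3.3 (TMM factors, filterByExpr with minimum count 10 and minimum total 15, robust glmQLFit, glmQLFTest), in 1 model with a mean per group and no covariate, and Benjamini-Hochberg adjustment at 0.05. Standard errors are the log2 fold change divided by the square root of F. The common biological coefficient of variation was 6.08%. Replicate pairs differed by more than sampling noise (chi-square per degree of freedom 2.66 to 19.8). A count of 3 corresponds to 0.0331 to 0.146 CPM, which covers counting error only. The steps were tested on simulated data. Positions and exon lengths come from GENCODE vM39, in which 56323 of the 56941 genes were found.

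Alternatives were DESeq2 1.42.0, upper-quartile factors, a floor of 10 counts per library, no filter on expression, only the 8 libraries compared, leaving out mitochondrial and ribosomal RNA genes, and leaving out each library. All members are named. Values in every library are given for the regulators, Abca1, Abcg1 and, in each role, the 3 members with the largest absolute log2 fold change in palmitate against BSA, and for any member past the threshold in the interaction. Of each list of other genes, up to 2 called genes with the largest change in palmitate against BSA are named. Members and lists were chosen with earlier results of these data known.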

Additional observations from a re-analysis of the deposited data

Results flagged for a closer look

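Libraries far from the other 3 of their group were sought for the members and the other named genes in 188 groups of 4 libraries. Chance picks about 1 in 20 groups, and 14 were found. BSA replicate 3 stood high in 3 genes, with Idi1 at 31.9 CPM against 28.1 to 28.7 in the others, Abca1 at 178 against 158 to 161, and Acss2 at 11.9 against 9.76 to 10.0. IL-1β replicate 8 was low in Dhcr7, at 11.3 CPM against 12.9 to 13.2, and in Nr1h2, at 43.6 against 51.3 to 52.7. Palmitate replicate 11 was low in Cyp51, at 170.5 against 174 to 175, and high in Nsdhl, at 17.6 against 15.9 to 16.2. The remaining 7 were single libraries. Srebf2 was low in BSA replicate 1 at 120.5 CPM, Pmvk low in palmitate replicate 12 at 6.41, Ggps1 high in palmitate + IL-1β replicate 13 at 85.0 and Nr1h3 high in IL-1β replicate 6 at 0.664. Erlin1 was low in IL-1β replicate 5 at 25.8 CPM, Vldlr low in palmitate + IL-1β replicate 16 at 99.3 and Gramd1c low in palmitate + IL-1β replicate 15 at 0.257.

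By edgeR's test of the interaction, palmitate acted differently beside IL-1β on 3 named genes outside the 34. The term was -0.85 (SE 0.182, edgeR adjusted p = 0.00479) for Ch25h, -1.02 (SE 0.123, edgeR adjusted p = 9.47e-07) for Cyp7b1 and -0.51 (SE 0.0727, edgeR adjusted p = 1.68e-05) for Arl4c, so palmitate raised each by less when IL-1β was present.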

How the results depend on the processing

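No member reversed a called direction under any alternative. The cause of the changes below was not tested. With upper-quartile scaling 11 members were lower in palmitate against BSA (5 as reported), 23 lower and 5 higher in palmitate + IL-1β against BSA (19 and 7), 11 lower against IL-1β (8), 19 lower against palmitate (18) and 19 lower in IL-1β against BSA (17). Under it the median log2 fold change of all genes was -0.003 to -0.077 over these comparisons. Shares of all genes called under this scaling are given above only for palmitate against BSA. The other counts therefore cannot be read as particular to the members. In palmitate + IL-1β against palmitate, 2 members were higher with DESeq2 and 2 with only the 8 libraries compared (1 as reported). In the interaction 1 member was lower with no expression filter (0 as reported). Leaving out 1 library gave 2 to 6 members higher in palmitate against BSA, 3 to 5 higher in IL-1β against BSA, 0 to 4 higher in palmitate + IL-1β against palmitate and 0 to 1 lower in the interaction. Of 204 member values, DESeq2 left 200 on their side of the threshold and moved 1 past it, and gave no adjusted p for 3, of Abcg1 and Nr1h3. Upper-quartile scaling left 185, moved 16 past it and 3 below it, and shifted all genes by at most 0.08 on the log2 scale. For the 13 named genes outside the 34, the same alternatives were added after seeing the data, and Osbpl10 alone lost a call, without BSA replicate 3 or palmitate replicate 9. The interaction could not be fitted with 8 libraries. No paired analysis was possible because no replicate number is shared between groups. Depth limits Abcg1 and Nr1h3, under 1 CPM, and the 4 libraries of a group may be technical repeats. RNA levels do not give sterol content, protein cleavage or efflux, which were not analysed here.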
